A study of Mus musculus with 3 samples.

Results

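The genes described here encode the protein folding and quality control machinery of the endoplasmic reticulum (ER), the sensors and transcription factors of the unfolded protein response (UPR), and the enzymes, chaperones and coat proteins through which procollagen is folded and leaves the ER. They were taken by gene symbol from a list of 37 genes, and the rule uses no measured value, although the list was drawn up with earlier results of these data known. Of these, 36 were present in the table of 15554 genes, and expression of *Sec24d* was not analysed here. FPKM is a fragment count scaled to transcript length and library depth. Averaged over the libraries, FPKM reached 1 or more in all 36 genes, which was also the filter for the 9226 genes they were set against.

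The cells were NIH3T3, a mouse embryonic fibroblast line. They were kept in serum-free IMDM medium, and were then left without stimulation (CTRL) or incubated for 24 h with GDF15 protein at 100 ng/mL or TGFβ protein (TGF-β) at 4 ng/mL. For each treatment, RNA of 3 samples was combined into 1 pooled library, so that no difference below has a replicate check and no test between treatments is possible. Bulk FPKM cannot tell apart fewer cells of a type and less RNA per cell.

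Secreted proteins and collagens enter the ER through the Sec61 translocon, and fold there with the help of the chaperone BiP (*Hspa5*), lectins and disulfide isomerases. When unfolded proteins accumulate, the sensors IRE1 (*Ern1*), PERK (*Eif2ak3*) and ATF6 start the UPR, which raises the transcription of chaperone genes through the factors XBP1, ATF4 and cleaved ATF6. Procollagen needs further steps, which are prolyl hydroxylation, binding by the collagen chaperone HSP47 (*Serpinh1*) and packing into large COPII carriers with the help of TANGO1 (*Mia3*). Fibroblasts are known for a heavy load of secreted collagen.

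Depth, estimated from the steps of low FPKM values, was about 17300000 fragments (CTRL), 19800000 (GDF15) and 16000000 (TGF-β). From it, the fragments behind each value and a 95% counting interval of each change were approximated, and these cover counting error only. The listed genes had between about 208 and 27548 fragments per library. All 8 fibroblast markers checked had a mean FPKM of at least 1, with summed FPKM of 12280.4 to 14016, most of it from *Fn1*, *S100a4*, *Vim* and the type I collagen genes. Single markers differed in both directions, among them *Pdgfra* with 61.3, 61.3 and 35.0 and *S100a4* with 3817, 2529 and 2942. In contrast, 0 of 5 epithelial and 0 of 4 endothelial markers reached a mean FPKM of 1. *Cd68* and *Lyz2* did among 5 leukocyte markers, with FPKM of 1.66, 1.14 and 1.67 and of 5.29, 6.20 and 4.13, while *Ptprc* was at or below 0.148. Summed over each marker list, FPKM was 0.268 to 0.735 (epithelial), 0.252 to 0.329 (endothelial) and 5.91 to 7.47 (leukocyte), and *Epcam* and *Emr1* were listed at 0 in all 3 libraries. The part of these markers in the changes below was not tested.

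The regulatory sequence most closely tied to the UPR is the ER stress element (ERSE), the binding site of ATF6 together with NF-Y. It was searched as the letters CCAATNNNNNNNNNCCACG, on both strands, in RefSeq windows of GRCm38.p6 that run from 250 bases before each gene start to 50 after it. Of 30 listed genes with a window, 7 held an exact match (23.3%), namely *Hspa5*, *Hsp90b1*, *Calr*, *Canx*, *Pdia6*, *Dnajc3* and *Creld2*. Of all 27025 genes with a window, 37 did (0.137%), in 39 of 32851 windows (0.119%). The listed genes were chosen partly as genes of the UPR, so the higher share among them is not an independent result. The stretches around these matches are shown because they hold the letters searched for. Each is read 5′ to 3′ on the strand of its gene and lies before the RefSeq gene start, with the fixed letters of each ERSE, or of its complement where the match is on the other strand, in capitals.
Hspa5 (chr2:34772020-34772048, plus strand): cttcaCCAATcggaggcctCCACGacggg
Hsp90b1 (chr10:86705513-86705676, minus strand): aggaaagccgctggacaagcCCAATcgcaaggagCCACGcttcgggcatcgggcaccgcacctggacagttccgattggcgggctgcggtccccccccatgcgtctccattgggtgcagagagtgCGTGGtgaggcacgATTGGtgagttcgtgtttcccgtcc
Calr (chr8:84847055-84847113, minus strand): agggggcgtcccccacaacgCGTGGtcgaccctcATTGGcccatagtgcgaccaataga
Canx (chr11:50325780-50325838, minus strand): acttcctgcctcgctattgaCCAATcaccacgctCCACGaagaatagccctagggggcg
Pdia6 (chr12:17266471-17266529, plus strand): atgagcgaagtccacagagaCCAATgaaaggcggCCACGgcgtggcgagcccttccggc
Dnajc3 (chr14:118937807-118937865, plus strand): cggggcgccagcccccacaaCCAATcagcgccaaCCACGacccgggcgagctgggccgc
Creld2 (chr15:88819500-88819558, plus strand): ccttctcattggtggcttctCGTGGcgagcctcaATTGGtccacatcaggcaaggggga

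The match in *Hspa5* lay 65 to 47 bases before the RefSeq start. GENCODE M21 begins the gene 120 bases earlier and places these bases inside an exon, so a shorter stretch is shown. *Hsp90b1* was the only listed gene with more than 1 exact match, at 212 to 194 bases on its own strand and at 107 to 89 bases on the other strand. *Creld2* carries the element (126 to 108 bases, other strand) but did not differ between libraries beyond counting error. Its transcript is short (1366 bases), and its change in GDF15 went from 0.02 to 0.18 with the trend along length removed and to 0.25 with length and GC content. For contrast, the 120 bases before the start of *P4ha3*, the gene with the largest change, hold no match.
P4ha3 (chr7:100285400-100285519, plus strand): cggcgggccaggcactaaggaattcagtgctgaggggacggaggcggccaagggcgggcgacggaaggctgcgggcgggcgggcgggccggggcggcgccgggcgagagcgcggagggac

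ERSE-II, searched as ATTGGNCCACG, was found in 2 of the 30 genes, in *Herpud1* at 52 to 42 bases before the start and in *Dnajb11* just after it, against 0.0444% of all genes with a window. The UPR element, searched as TGACGTGG or TGACGTGT, was found in *Kdelr3*, *Sec23a* and *Sec24d* for the first form and in *Mia3* for the second (0.714% and 0.529% of all genes with a window). No match of these motifs overlapped another in a listed gene. These are matches of letters only, and binding was not measured.

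**Figure D1:**
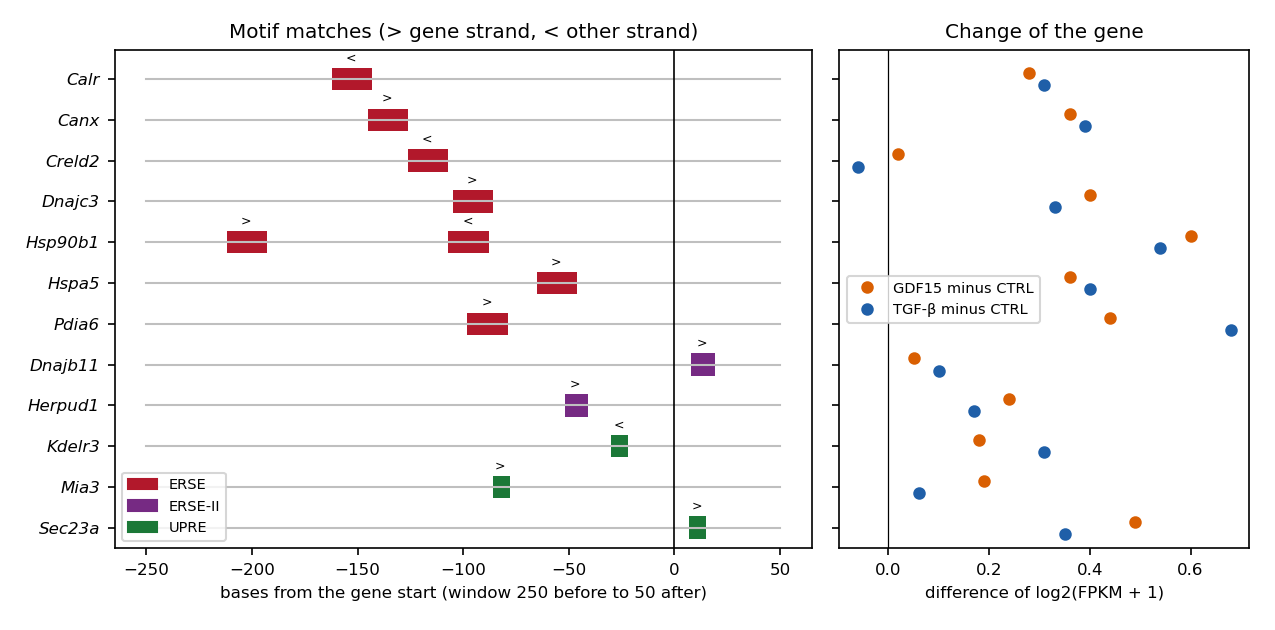
Left, exact matches of ERSE, ERSE-II and the UPR element (coloured boxes) along the promoter window of each gene of the 36 that holds one, in bases from the gene start, with the strand of the match above each box. Right, the change of the same gene in GDF15 (orange) and TGF-β (blue) against CTRL as a difference of log2(FPKM + 1). The 7 genes with an ERSE range from 0.02 to 0.60 in GDF15 and from -0.06 to 0.68 in TGF-β.

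Together, the 36 genes made up 0.95% of the summed FPKM in CTRL, and their share was 1.27% with GDF15 and 1.3% with TGF-β. Their own summed FPKM was 3145 (CTRL), 3887 (GDF15) and 4043 (TGF-β). That of the whole table was 331179, 306603 and 310599, so part of the rise in share comes from the smaller total. Changes are given as differences of log2(FPKM + 1) against CTRL, which slightly understate the change of genes with low FPKM. The median change of the 36 genes was 0.24 in GDF15 and 0.31 in TGF-β, whereas that of the 9226 genes was -0.03 and -0.07. In GDF15, 33 of the 36 were higher than in CTRL, 27 of them beyond counting error, and in TGF-β 32 were higher, 27 beyond counting error. Of all genes, 44.4% were higher in GDF15 and 37.2% in TGF-β. Among the 9194 genes with a known length, 21.1% were higher and 27.7% lower beyond counting error in GDF15, and 16.7% were higher and 33.0% lower in TGF-β. Counting error is smaller for abundant genes. The genes below CTRL, *Dnajb9*, *Ppib* and *Sec61b* in GDF15 and *Dnajb9*, *Creld2*, *Ppib* and *Ern1* in TGF-β, all lay within counting error. They are close to 0, and their sign is not resolved. Both comparisons share the CTRL library, so that a high or low value in CTRL would move both.

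The changes were small. The 2-fold criterion of the study was passed by 1 listed gene, *P4ha3* in TGF-β, and by 0 in GDF15, against 0.932% and 0.347% of the 9226 genes in the upward direction and 0.553% and 0.130% in the downward direction. At 1.5-fold, *Hsp90b1* and *P4ha3* were higher in GDF15 and *Pdia6*, *P4ha2* and *P4ha3* in TGF-β, that is 2 and 3 of 36, where the share among all genes was 1.27% and 2.54%. *Hsp90b1* did not pass with length and GC content corrected (0.51). At 1.25-fold, a threshold added after seeing the data, 14 of 36 were higher in GDF15 and 15 of 36 in TGF-β, where the share among all genes was 6.53% and 6.80%. None of the 36 was lower at 1.5-fold or 1.25-fold in either library. Among all genes, 1.55% (GDF15) and 3.06% (TGF-β) were lower at 1.5-fold, and 10.0% and 14.3% at 1.25-fold. With the median of all genes set to 0, the upward part of the 1.25-fold calls over all genes went from 39.5% to 50.7% in GDF15 and from 32.2% to 52.5% in TGF-β, and 15 and 20 of the 36 were then higher, against 8.25% and 10.1% of all genes. For TGF-β minus GDF15 it went from 43.8% to 58.5%.

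**Figure D2:**
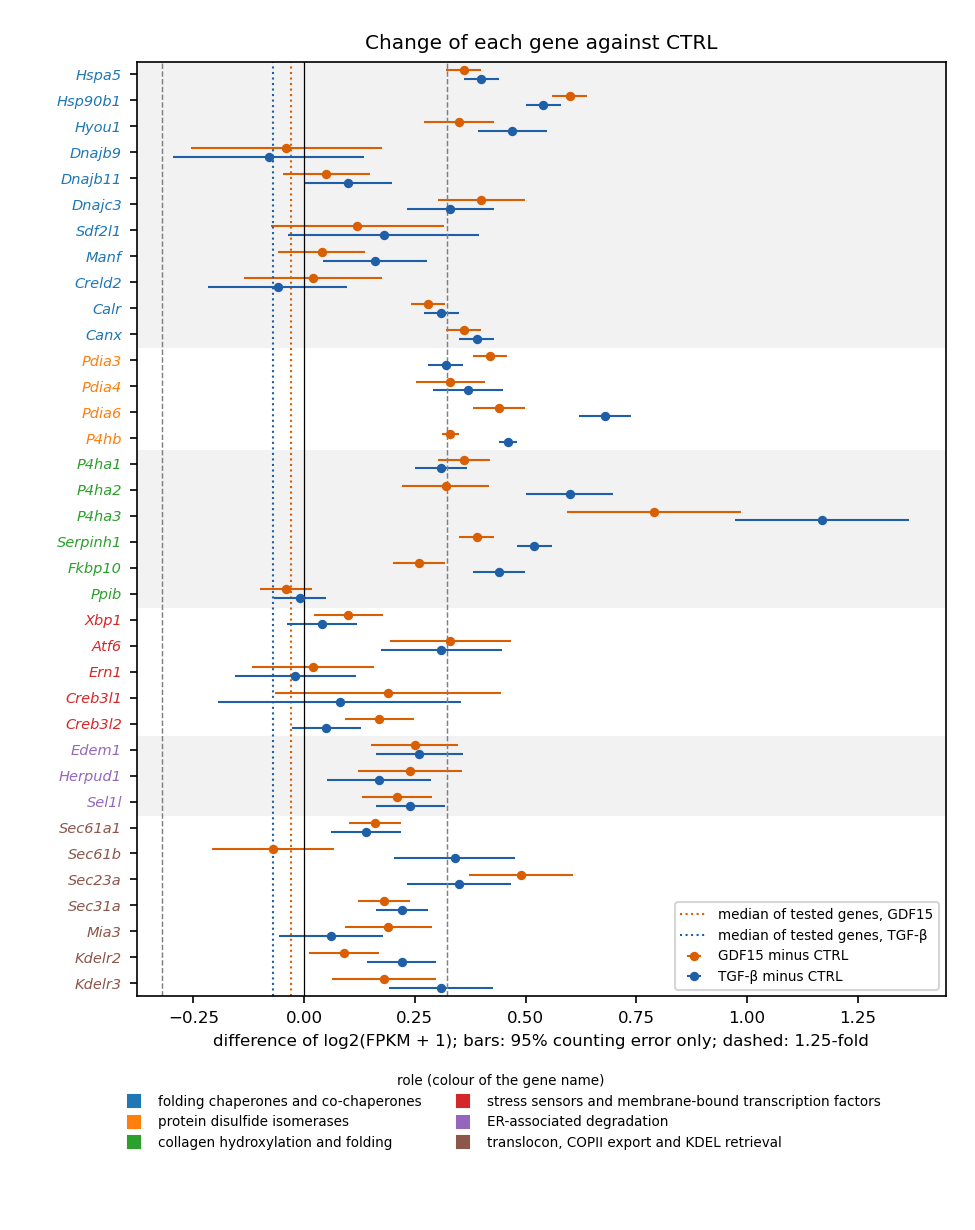
Change of each of the 36 genes in GDF15 (orange) and TGF-β (blue) against CTRL as a difference of log2(FPKM + 1), with bars for the 95% counting interval only. Dotted lines mark the median of the 9226 genes and dashed lines 1.25-fold. Disulfide isomerases and most collagen genes lie near or to the right of 1.25-fold, and *Dnajb9*, *Creld2*, *Ppib* and *Ern1* near 0.

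Of the 11 ER chaperones and co-chaperones, *Hspa5*, *Hsp90b1*, *Hyou1*, *Dnajc3*, *Calr* and *Canx* were higher beyond counting error in both stimulated libraries. *Hspa5* (BiP, the HSP70 chaperone of the ER, chromosome 2 of GRCm38, 34771970 to 34777547) had FPKM values of 235, 301 and 309, in the order CTRL, GDF15, TGF-β that is kept below. Its change was 0.36 and 0.40, at the 95th percentile of all genes in both comparisons. With length and GC content corrected, the change of *Hspa5* was 0.25 and 0.33. *Hsp90b1* (GRP94, the HSP90 of the ER, chromosome 10, 86690209 to 86705509) went from 227 to 344 and 331, and its change of 0.60 was the largest of any chaperone in GDF15. *Hspa5* per *Hsp90b1* was 1.03, 0.875 and 0.935.

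The lectin chaperones, which hold glycoproteins during folding, were higher by similar amounts in deposited FPKM. *Calr* (calreticulin, soluble) had an FPKM of 307, 373 and 381, and *Canx* (calnexin, membrane-bound) of 161, 208 and 211. *Hyou1*, a large HSP70-like protein that exchanges nucleotides on BiP, had 24.4, 31.4 and 34.2, with changes of 0.35 and 0.47. *Dnajc3* (P58IPK, a co-chaperone of BiP that also inhibits PERK) had 14.6, 19.7 and 18.7. In each of these 4 genes the CTRL library was the lowest and the stimulated libraries lay close together. Their changes in GDF15 were 0.28 (*Calr*), 0.36 (*Canx*), 0.35 (*Hyou1*) and 0.40 (*Dnajc3*). With length and GC content corrected, these were 0.33, 0.22, 0.35 and 0.23. In TGF-β the corrected changes were 0.37, 0.28, 0.49 and 0.23.

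The other co-chaperones and small folding factors, several of which are sensitive UPR targets, differed less from CTRL in deposited FPKM. *Dnajb9* (ERdj4, a target of spliced XBP1) had an FPKM of 8.24, 8.0 and 7.75, and *Sdf2l1*, which works with *Dnajb11*, had 17.7, 19.4 and 20.2. *Sdf2l1* has a short transcript (1108 bases), and its changes of 0.12 and 0.18 became 0.32 and 0.28 with the trend along length removed and 0.40 and 0.33 with length and GC content. *Dnajb11* (ERdj3) had 36.8, 38.2 and 39.7. *Manf*, a secreted ER stress factor, had 33.9, 34.8 and 38.0, and *Creld2*, another ER stress-induced gene, 26.0, 26.4 and 24.9. None of these 5 genes differed from CTRL beyond counting error in GDF15, and *Dnajb11* (0.10) and *Manf* (0.16) alone did in TGF-β. *Hspa5* per *Dnajb9* went from 28.5 in CTRL to 37.7 and 39.9.

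**Figure D3:**
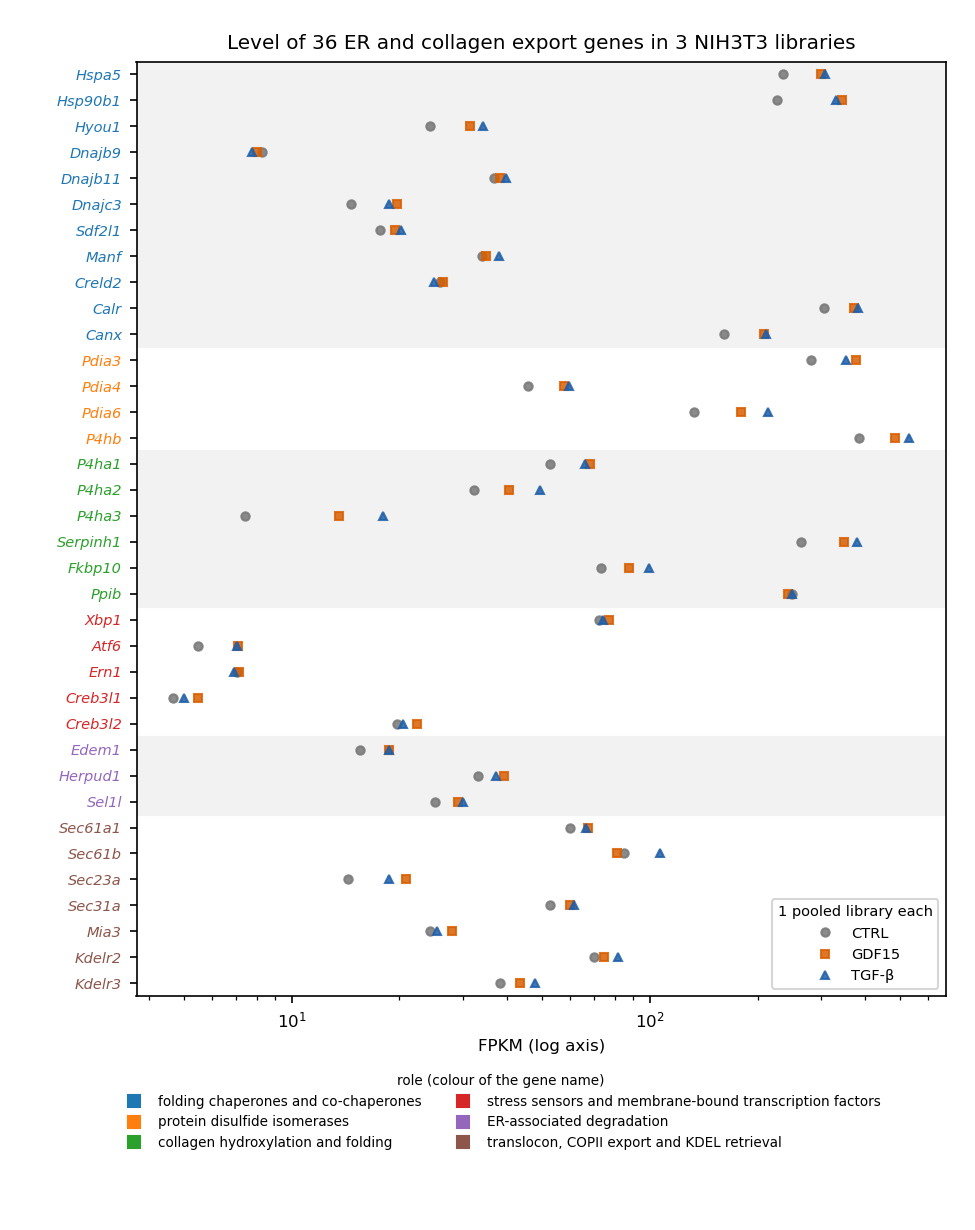
FPKM (log axis) of the 36 genes in CTRL (grey circles), GDF15 (orange squares) and TGF-β (blue triangles), 1 pooled library each, ordered by role. *P4hb* is highest in every library (384, 485 and 529.7) and *Creb3l1* lowest (4.67, 5.47 and 5.01).

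Protein disulfide isomerases form and shuffle disulfide bonds. All 4 were higher by over 1.25-fold in both libraries (6.53% and 6.80% of all genes), with a median change of 0.38 in GDF15 and 0.42 in TGF-β. With length and GC content corrected, *Pdia3* no longer passed in TGF-β (0.30). *P4hb*, which is both the founding disulfide isomerase and the β subunit of collagen prolyl 4-hydroxylase, was the most abundant listed gene in every library, with an FPKM of 384, 485 and 529.7. *Pdia3* (ERp57, the partner of calnexin and calreticulin) had 283, 378 and 354. *Pdia4* had 45.6, 57.7 and 59.5. *Pdia6* (chromosome 12, 17266545 to 17284770) had 133, 180.4 and 214, and its change of 0.68 in TGF-β was the second largest of the 36. *Pdia3* was thus highest in GDF15, and *P4hb* and *Pdia6* were highest in TGF-β. For *Pdia4*, TGF-β and GDF15 differed by 0.04, which is within counting error.

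Genes for collagen hydroxylation and folding had a median change of 0.34 in GDF15 and 0.48 in TGF-β, the largest of any role in TGF-β. The α subunits of prolyl 4-hydroxylase, which carry the active site that makes hydroxyproline, differed among themselves. *P4ha3* (chromosome 7, 100285520 to 100319699) had FPKM values of 7.42, 13.6 and 18.0, from about 303, 637 and 678 fragments. Its change was 0.79 in GDF15 (counting interval 0.59 to 0.99) and 1.17 in TGF-β (0.98 to 1.37), at the 99.4th percentile of all genes in both. *P4ha2* had 32.3, 40.5 and 49.3, and *P4ha1* had 52.8, 68.0 and 65.8.

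Within each library, *P4ha1* made up 57.1%, 55.7% and 49.4% of the summed FPKM of the 3 α subunits. The share of *P4ha3* went from 8.03% to 11.1% and 13.5%. These shares do not depend on the depth of the library. The summed α subunits per *P4hb* was 0.241, 0.252 and 0.251.

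*Serpinh1* (HSP47, the chaperone specific for the collagen triple helix, chromosome 7, 99345376 to 99353239) had an FPKM of 265, 348 and 380.4, with changes of 0.39 and 0.52. *Fkbp10* (FKBP65, a peptidyl prolyl isomerase that acts on procollagen) had 73.0, 87.5 and 99.3. Both were lowest in CTRL and highest in TGF-β. *Ppib* (cyclophilin B, part of the prolyl 3-hydroxylation complex) had 250.4, 243 and 249, and *Serpinh1* per *Ppib* went from 1.06 to 1.43 and 1.53. *Ppib* has a transcript of 892 bases, and with the trend along length removed its changes were 0.22 and 0.10, against 0.43 and 0.56 for *Serpinh1*.

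The type I collagen genes, the main cargo of this pathway in fibroblasts, were set beside their chaperone. *Col1a1* per *Serpinh1* was 4.17, 4.80 and 5.0, and *Col1a2* per *Serpinh1* was 4.66, 5.30 and 5.12. The collagen transcripts are long, and with the trend along length removed the changes in GDF15 were 0.47 (*Col1a1*), 0.48 (*Col1a2*) and 0.43 (*Serpinh1*), so that they nearly coincided there. In TGF-β they were 0.70, 0.62 and 0.56. Of the 5 fibrillar collagen genes listed, 4 were higher by over 1.25-fold in each library, where the share among all genes was 6.53% and 6.80%. The medians over the 5 were 0.60 and 0.79. With the trend along length removed, 4 passed in each library and the medians were 0.47 and 0.70. *Col5a2* had changes of 0.88 and 1.13 (0.74 and 1.05 with the trend along length removed) and *Col5a1* of 0.62 and 1.0 (0.42 and 0.88). *Col3a1* was the exception, with 0.26 in GDF15 and -0.27 in TGF-β (0.16 and -0.31 with the trend along length removed).

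The sensors and membrane-bound transcription factors had the lowest medians of any role without length correction, 0.17 in GDF15 and 0.05 in TGF-β. *Ern1* (IRE1, the nuclease that splices *Xbp1* mRNA) had an FPKM of 7.03, 7.14 and 6.90, and *Xbp1* had 72.1, 77.2 and 74.0. Gene-level FPKM do not separate spliced from unspliced *Xbp1*. *Atf6* was the exception, with 5.46, 7.10 and 7.03 and changes of 0.33 and 0.31. It has a transcript of 7246 bases, and with the trend along length removed its changes were 0.17 and 0.23.

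*Creb3l2* (BBF2H7) and *Creb3l1* (OASIS) encode ER-anchored factors known for the secretory load of cartilage and bone, where they act on *Sec23a* and collagen genes. *Creb3l2* had 19.7, 22.4 and 20.5 and *Creb3l1* 4.67, 5.47 and 5.01. The transcript of *Creb3l2* is long (7082 bases), and removal of the trend along length took its change from 0.17 to 0.02 in GDF15 and from 0.05 to -0.04 in TGF-β. The interval of the change of *Creb3l1*, with about 208 to 283 fragments, was -0.07 to 0.45 in GDF15 and -0.19 to 0.36 in TGF-β. Of this class, *Creb3l2* alone differed between TGF-β and GDF15 beyond counting error, by -0.12, or by -0.06 with the trend along length removed.

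Genes of ER-associated degradation, which returns misfolded proteins to the cytosol, were slightly higher. *Edem1* (a lectin that extracts misfolded glycoproteins) had an FPKM of 15.5, 18.7 and 18.7. *Herpud1* (a membrane scaffold and UPR target) had 33.1, 39.2 and 37.3, and *Sel1l* (the partner of the ligase encoded by *Syvn1*) had 25.1, 29.2 and 30.0. All 3 were higher beyond counting error in both libraries, with changes of 0.17 to 0.26. Among genes with a known length, 21.1% (GDF15) and 16.7% (TGF-β) were higher beyond counting error. At 1.25-fold, 0 of 3 passed, where the share among all genes was 6.53% and 6.80%, so that this count says little. With the trend along length removed, the change in GDF15 was 0.06 for *Sel1l*, 0.13 for *Edem1* and 0.32 for *Herpud1*, and their median went from 0.24 to 0.13.

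In the entry and exit machinery, the median change was 0.18 in GDF15 and 0.22 in TGF-β. *Sec61a1*, the channel of the translocon, had an FPKM of 59.9, 67.2 and 66.3, and *Sec61b*, a small subunit, had 84.6, 80.9 and 107. *Sec61b* differed between the stimulated libraries by 0.41, the most of the 36 as deposited. With the trend along length removed it differed by 0.23, less than *P4ha3* (0.35) and *P4ha2* (0.26). *Sec61g*, the remaining subunit, had the same order, with 16.9, 15.1 and 23.6.

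Of the COPII genes among the 36, *Sec23a* (inner coat, mutated in a craniofacial collagen secretion disorder) differed most from CTRL, with 14.4, 20.8 and 18.7 and changes of 0.49 and 0.35. *Sec31a* (outer coat) had 52.6, 59.9 and 61.3. *Mia3* (TANGO1, which loads procollagen into COPII carriers) had 24.4, 28.0 and 25.5 and differed beyond counting error in GDF15 only. The KDEL receptors, which bring escaped chaperones back from the Golgi, had 69.8, 74.5 and 81.5 (*Kdelr2*) and 38.3, 43.4 and 47.7 (*Kdelr3*). *Kdelr1*, which was not among the 36, was lower in both, with 97.5, 83.1 and 84.5. Its changes of -0.23 and -0.20 became -0.12 and -0.14 with the trend along length removed.

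Compared with each other, the stimulated libraries were similar for these genes. The median difference of TGF-β minus GDF15 was 0.03, against -0.04 over all genes, and 21 of 36 were higher in TGF-β, against 39.7% of all genes. Over 1.25-fold, *P4ha3* (0.38) and *Sec61b* (0.41) were higher in TGF-β, which is 2 of 36 against 3.91% of all genes, and 0 of 36 were lower, against 5.03%. Beyond counting error, 12 of the 36 were higher and 5 lower in TGF-β, against 12.7% and 23.7% of the genes with a known length. The higher ones included 4 of the 6 collagen folding genes, *P4ha2*, *P4ha3*, *Serpinh1* and *Fkbp10*, by 0.13 to 0.38. The lower ones were *Hsp90b1*, *Pdia3*, *Creb3l2*, *Sec23a* and *Mia3*, by 0.06 to 0.14.

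Transcript length moved with the change over the whole table, so each change was also read against it. Across 9194 genes with a length in GENCODE M21, Spearman's rho between change and length was 0.48 in GDF15 and 0.24 in TGF-β, and among the 36 it was 0.35 and 0.07. Genes are not independent replicates, and all points share the same libraries. The 5 listed genes of up to 1500 bases, *Sec61b*, *Ppib*, *Sdf2l1*, *Creld2* and *Kdelr3*, had a median change of 0.02 in GDF15, while the 31 longer ones had 0.28. With the running median along length removed, these medians were 0.23 and 0.30. The median over the 36 was then 0.30 in GDF15 and 0.29 in TGF-β, with 11 and 16 genes over 1.25-fold, against 4.58% and 6.66% of all genes under the same correction.

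The correction bears on single genes in different ways. In GDF15, *Dnajb9* (2461 bases) went from -0.04 to 0.00 and *Ern1* (6946 bases) went to -0.13. *Sec61b* went from -0.07 to 0.23 in GDF15 and from 0.34 to 0.47 in TGF-β. *Hsp90b1* and *P4ha3* had 0.60 and 0.84 in GDF15 with length corrected, and 0.51 and 0.91 with length and GC content.

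**Figure D4:**
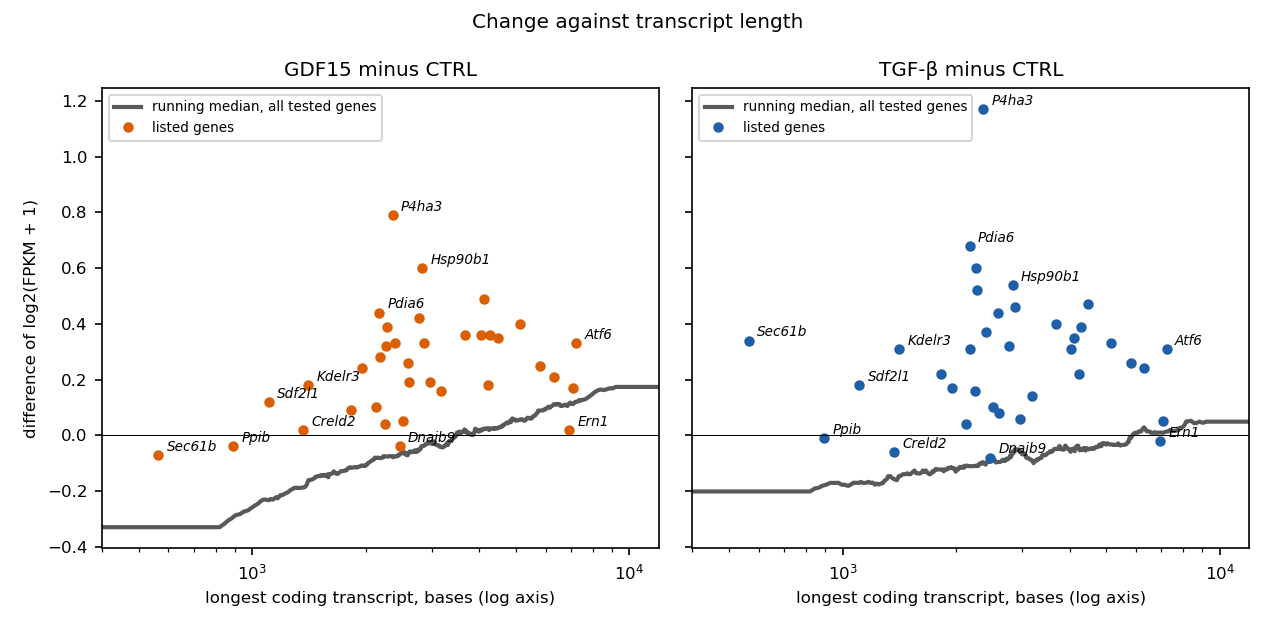
Change against CTRL (difference of log2(FPKM + 1)) and length of the longest coding transcript (log axis) for the 36 genes (points), with the running median over 9194 genes (line), for GDF15 (left) and TGF-β (right). The line climbs with length more steeply in GDF15 (rho 0.48) than in TGF-β (rho 0.24), and most points lie above it.

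Other genes of the same pathways were listed by role beside the 36, and 112 were in the table, 106 of them with a mean FPKM of at least 1. Their median change was 0.12 in GDF15 and 0.16 in TGF-β. Over 1.25-fold, 19 were higher and 4 lower in GDF15, and 20 higher and 3 lower in TGF-β. Among all genes, 6.53% were higher and 10.0% lower in GDF15, and 6.80% and 14.3% in TGF-β. With length and GC content corrected, 12 of the 106 were higher and 1 lower in GDF15, and 21 higher and 3 lower in TGF-β. Under that correction, 3.99% of all genes were higher and 5.83% lower in GDF15, and 6.68% and 11.8% in TGF-β. The medians of the 106 were then 0.12 and 0.13. By role and without length correction, the medians ran from 0.09 (degradation) to 0.23 (folding and oxidation) in GDF15. In TGF-β they ran from 0.05 to 0.27 (collagen modification). With the trend along length removed, folding and oxidation had 0.17 in GDF15, and collagen modification was highest with 0.26.

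Few single genes of these lists passed 1.5-fold. *Fkbp14*, a prolyl isomerase for collagen, was higher in GDF15, with an FPKM of 7.72, 12.1 and 10.6. *Ero1l*, the oxidase that recharges disulfide isomerases, had 22.6, 31.5 and 38.1 and passed in TGF-β, as did *Spcs3* of the signal peptidase with 17.2, 24.1 and 27.0. *Fkbp2* had the lowest change in GDF15 as deposited (-0.47), with 67.8, 48.8 and 47.8. With the trend along length removed it had -0.36, and *Sec31b* had -0.40.

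The PERK arm of the UPR gave values in both directions. *Eif2ak3* itself had an FPKM of 9.40, 11.5 and 9.37, and *Atf4*, its main transcription factor, 156, 173 and 214. *Trib3*, a target of ATF4, had 13.9, 19.3 and 29.9, and its change of 1.05 in TGF-β was the largest of the 106. *Ddit3* (CHOP, the factor of terminal ER stress) had 71.8, 56.8 and 47.8, with changes of -0.33 in GDF15 and -0.58 in TGF-β, which became -0.07 and -0.47 with the length trend removed. The median of the 13 genes of the list that holds the PERK arm together with other membrane-bound factors was 0.10 in GDF15 and 0.05 in TGF-β.

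Chaperones outside the ER had medians near those of all genes. The 13 cytosolic chaperones had a median of -0.01 in GDF15 and -0.07 in TGF-β. Over 1.25-fold, 0 were higher in either library, 0 lower in GDF15 and 2 lower in TGF-β (15.4%). Among all genes, 6.53% were higher and 10.0% lower in GDF15, and 6.80% and 14.3% in TGF-β. The 8 mitochondrial ones had medians of -0.08 and 0.00, with 0 higher, 2 lower in GDF15 and 1 lower in TGF-β at the same threshold. With the trend along length removed, 0 of the 8 were lower in GDF15 and 1 in TGF-β. Under that correction, 6.71% and 13.3% of all genes were lower.

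Genes grouped by ERSE gave a mixed picture. The 7 listed genes with an ERSE had a median change of 0.36 in GDF15 and 0.39 in TGF-β, and the 22 with a window in the table and no ERSE had 0.20 and 0.25. With the trends along length and GC content removed, the medians were 0.25 and 0.24 in GDF15, which nearly coincide, and 0.33 and 0.24 in TGF-β. The 5 other expressed genes with an ERSE (*Alg12*, *Hnrnpa3*, *Pan2*, *Syvn1* and *Zfp57*) had -0.18 and -0.09. No test was made between these groups.

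**Figure D5:**
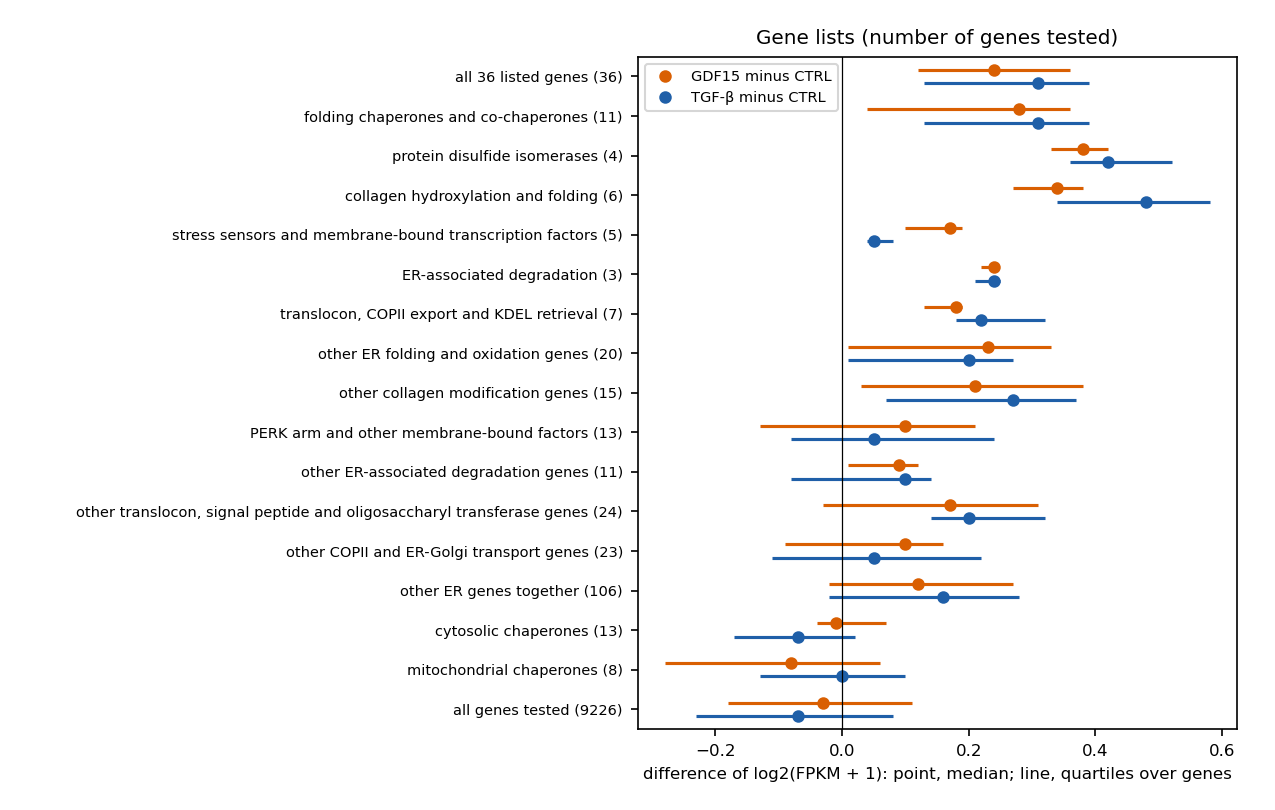
Median (point) and quartiles over genes (line) of the change against CTRL for the 36 genes, their roles, other ER genes, chaperones of other compartments and all genes, in GDF15 (orange) and TGF-β (blue). The numbers of genes are in parentheses. Disulfide isomerases (0.38 and 0.42) and collagen folding genes (0.34 and 0.48) lie farthest to the right.

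Some listed genes share exon sequence with a neighbour in GENCODE M21, and whether strand was used in counting is not given in the sources used here. *Ppib* overlaps *Snx22* over 514 bases, *Fkbp10* overlaps *Nt5c3b* over 193, *Manf* overlaps *Dcaf1* over 146 and *Pdia6* overlaps *Atp6v1c2* over 50, all on opposite strands. *Pdia3* and *Kdelr3* share 18 and 4 bases with *Catsper2* and *Ddx17*, and *Manf* shares 14 bases with *Rbm15b* on its own strand. Reads within these bases could have been counted for either gene.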

How the data were processed

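Libraries of mRNA (TruSeq Stranded) were sequenced as 50-base single-end reads. The authors deposited FPKM per gene, computed with Cufflinks, for protein coding genes reviewed in UniProt. The submitters' processing notes name TopHat 1.3.2, Bowtie 0.12.9, Cufflinks 2.0.2 and mm10, which is GRCm38. The gene annotation they used is not given in the sources used here. Columns were assigned by the treatment in their names, which occurs in the title of 1 sample each.

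Deposited FPKM were used unchanged. A change is a difference of log2(FPKM + 1), and genes with a mean FPKM below 1 were left out of counts. The members and lists were chosen with earlier results of these data known. Every listed gene in the table is named. Of the other ER genes, pooled over their lists, those over 1.5-fold in a comparison are named, or the largest change where none was in a direction, with others only where a result turns on them.

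GENCODE M21 gave transcript lengths, GC content and positions for 15474 of 15554 rows (14725 through the symbol, 749 through an older one), and promoter windows from RefSeq. Trends were removed as running medians over 501 genes. Depth was estimated from genes with 1 coding transcript, as the depth at which low values fall nearest to whole fragments. Counting intervals use 1.96 standard errors of such fragments. The depth estimate and the removal of a trend along length were tested on simulated data. Counting intervals and the joint removal of length and GC trends were not. The simulated counts were made and read with the same transcript lengths, whereas the annotation behind the deposited FPKM is not known. Alternatives were pseudocounts of 0.5, 0.1 and none, no filter, a mean FPKM of at least 10, upper quartile scaling, a median of 0, and removal of trends with length, with length and GC content and, added after seeing the data, with mean FPKM. Protein sequences were not analysed here. Python 3.11.15, numpy 2.4.6, pandas 2.3.3 and matplotlib 3.10.9 were used.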

Additional observations from a re-analysis of the deposited data

How the results depend on the processing

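No paired analysis was possible because there is a single pooled library for every treatment, and no library could be left out. Over the 9 planned and 1 added alternatives, the median change of the 36 genes ran from 0.24 to 0.30 in GDF15 and from 0.25 to 0.38 in TGF-β. It was -0.01 for TGF-β minus GDF15 with the trend along mean FPKM removed. At 1.5-fold, 5 genes were higher in TGF-β with upper quartile scaling and also with the median of all genes set to 0, where *Hsp90b1* and *Serpinh1* joined. With the length and GC trend removed, 4 were higher in TGF-β, *Serpinh1* among them, and 1, *P4ha3*, in GDF15. At 1.25-fold, 1 gene was higher in TGF-β than in GDF15 with either length correction. Of 1068 changes of single genes under the alternatives, 7 moved by more than the spread among genes of similar FPKM and 0 reversed beyond it. Those 7 were changes of *Sec61b*, *Sdf2l1*, *Creld2* and *Atf6* under the length corrections. Without replicates, differences between cultures cannot be told apart from those between treatments.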
